A study of Mus with 6 samples.

Results

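Glutathione S-transferases join the small antioxidant peptide glutathione to reactive compounds, which makes those compounds easier to remove. The soluble enzymes are grouped by sequence into classes with Greek letters, such as mu, pi, alpha, theta and omega, the kappa enzyme works in mitochondria and peroxisomes, and the microsomal enzymes belong to a separate family of small membrane proteins that also makes leukotrienes and prostaglandins. In the rodent brain the mu class is known mainly from astrocytes, and the pi class is often used to mark oligodendrocytes.

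The genes described are Gstm1, Gstm5, Gstp1, Gsta4, Gstt1, Gstk1, Gsto1, Mgst1 and Mgst3. They were chosen by symbol, as 9 of the 18887 rows of the deposited table, with the control and IRKO values of this table already known, so their differences between the groups are a description that no p-value supports. All 9 passed the filter on low values, a normalized count of at least 10 in at least 2 libraries, which 14698 genes passed. Which measured values led to this choice of genes, beyond that contrast, the sources used here do not say.

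The libraries came from mouse whole brain, by RiboTag immunoprecipitation, which pulls down tagged ribosomes of a chosen cell type, labelled microglia here, together with their mRNA. There were 2 control libraries, labelled genotype Ctr, and 4 labelled genotype KO and named IRKO. The name is taken here to mean an insulin receptor knockout, since the title of the series concerns insulin signalling. Ages, sexes, the strain, the Cre driver and the tagged allele are not stated in the labels, nor whether each library was 1 animal or a pool. Replicates are therefore samples whose spread may be technical.

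Each library held 13858978 to 19010680 recovered reads. A normalized count is a gene's reads divided by 1 size factor per library, as the authors deposited it. All 20 microglia markers were read in every group and passed limma's test as higher in IRKO (median log2 change 1.66, summing to 121378 and 96943 per control library and 255714 to 361936 per IRKO library), while all 20 astrocyte markers were lower (median −3.92, summing to 1179120 and 931747 per control library and 82050 to 117171 per IRKO library). Of 16 neuron markers 14 were higher, and of 14 oligodendrocyte markers 9 were higher and 1 lower. Of 15 vascular markers 6 were higher and 2 lower, and of 10 choroid plexus and ependyma markers 6 were lower. Over all tested genes 26.6% passed as higher and 29% as lower. All 10 liver markers and all 5 red blood cell markers were lower in IRKO. Their sums in control replicates 1 and 2 were 808 and 12385 for liver and 75516 and 161622 for red blood cells, against at most 77.7 and 2132 in IRKO. The choroid plexus and ependyma markers summed to 5076 and 69406 in those 2 libraries, against 1077 to 12555 per IRKO library. Serpina3k, Serpina1e, Fgb, Gc and Mup10 of the liver list were at 0 in all IRKO libraries, and no marker of the astrocyte, neuron, oligodendrocyte or vascular lists was at 0 throughout a group. Although the pull-down is labelled microglia, the astrocyte markers summed to more than the microglia markers in both control libraries. In every IRKO library the microglia markers summed to more. The marker lists were chosen with earlier results of these data known, so their counts are a description. The part that cell content plays in the differences below was not tested. Fewer cells of a type cannot be told apart from less RNA per cell, or from a different carry-over of other cells' RNA in the pull-down.

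Across the 9 genes the summed normalized count was 86211 and 88234 for the controls but only 10184 to 12181 for IRKO, which made up 0.454% and 0.479% of the control libraries and 0.0755 to 0.0868% of the IRKO libraries. The sum was 7.52-fold higher in the controls. This fold takes the values as deposited, and the totals of whole libraries also differed. They were 18989913 and 18406380 in the controls and 13498338 to 14283223 in IRKO. Of the 9, 7 passed limma's threshold of an adjusted p under 0.05, all of them lower in IRKO, and the same 7 had values that did not overlap between the groups. Over all tested genes 55.6% passed, 26.6% as higher and 29% as lower, and the values of 67.6% did not overlap. Since the genes were selected with this contrast known, nothing is read from their count. Scaling the libraries to an equal mean of the microglia markers moved the median change of all genes from 0.017 to −1.58. The share of higher genes among those passing went from 47.9% to 0.25%. In that scaling all 9 passed as lower, beside 12373 of the 14698 tested genes. Nothing is read from that count either.

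**Figure D1:**
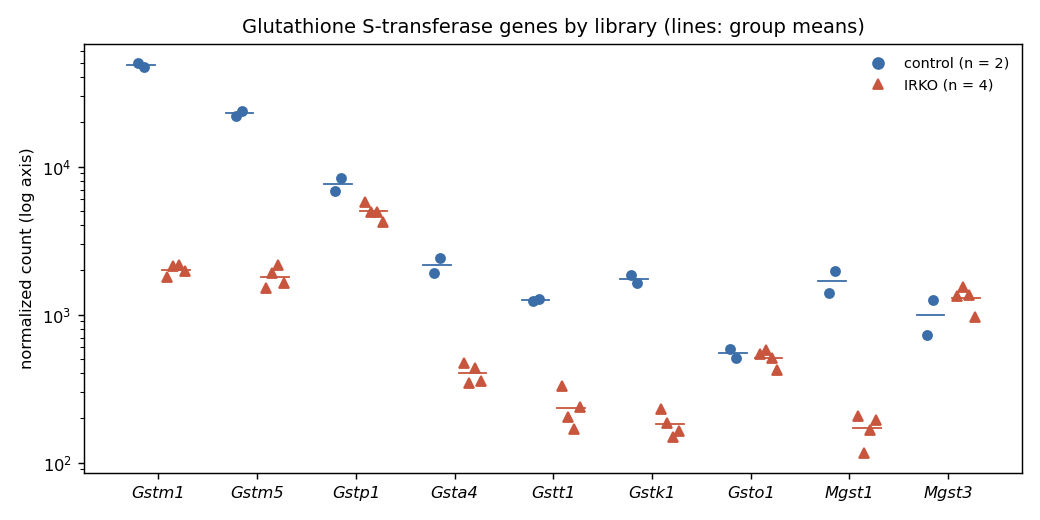
Normalized count of each of the 9 transferase genes (log axis) in the 2 control libraries (circles) and the 4 IRKO libraries (triangles), with a line at each group mean. The groups overlap for Gsto1 and Mgst3 and lie apart for the other 7 genes, with Gstm1 at 46897 and 49744 in the controls and at 1788 to 2169 in IRKO.

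Both mu class genes stood far lower in IRKO. Gstm1, a soluble enzyme with a broad range of reactive substrates, had 49744 and 46897 normalized counts in the controls, and 1788, 2143, 2169 and 1962 in IRKO replicates 1 to 4. Both controls lay far above every IRKO library. The control mean of 48321 ± 2013 (SD, n = 2) was 24.0-fold above the IRKO mean of 2015 ± 178 (SD, n = 4), with a log2 change of −4.59 ± 0.125 (SE). Of all tested genes 0.503% had a more negative change.

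Gstm5, the mu class member at one end of the same gene cluster, had 21902 and 23902 in the controls and 1506, 1919, 2147 and 1642 in IRKO. The groups again lay apart, at 12.7-fold, and the log2 change of −3.68 ± 0.154 (SE) was more negative in 1.31% of tested genes. The ratio of Gstm1 to Gstm5 reads was 2.27 and 1.96 in the controls and 1.01 to 1.19 in IRKO, so within this class the IRKO libraries held relatively less Gstm1. That ratio uses 2 genes of 1 library and does not depend on how libraries are scaled. Transcript lengths were not used, so it does not compare the amounts of the 2 mRNAs.

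Gsta4 and Gstt1 showed differences of like size. Gsta4, of the alpha class, clears hydroxynonenal, a product of lipid peroxidation. Its normalized counts were 1914 and 2412 in the controls and 473, 346, 434 and 356 in IRKO. Gstt1, of the theta class, acts on small halogenated compounds. It stood at 1233 and 1274 in the controls and at 327, 203, 169 and 239 in IRKO. Neither gene's groups overlapped, and their log2 changes were −2.43 ± 0.164 and −2.46 ± 0.229 (SE), or 5.38-fold and 5.35-fold higher in the controls. Gstt1 spread more among the IRKO libraries than among the controls, at 234 ± 67.9 (SD, n = 4) against 1253 ± 29.3 (SD, n = 2).

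The organelle and membrane enzymes Gstk1 and Mgst1 were also lower in IRKO. Gstk1 encodes the kappa enzyme. It had 1857 and 1646 in the controls and 232, 186, 150 and 163 in IRKO, a 9.59-fold difference with a log2 change of −3.27 ± 0.180 (SE). Mgst1 encodes a microsomal enzyme that also reduces lipid peroxides. Its values were 1391 and 1982 in the controls and 205, 115, 167 and 194 in IRKO, a 9.90-fold difference with a log2 change of −3.31 ± 0.240 (SE). The groups lay apart for both genes, but the controls differed more for Mgst1, which was higher in control replicate 2. The summed liver, red blood cell and choroid plexus and ependyma markers were also higher in that library than in control replicate 1. Any link of Mgst1 to them was not tested. The log2 change of Mgst1 was −3.06 without control replicate 2.

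Gstp1 differed less. This pi class enzyme had 6858 and 8353 in the controls and 5759, 4964, 4938 and 4239 in IRKO. The lowest control lay above the highest IRKO library, and the controls were 1.53-fold higher, with a log2 change of −0.61 ± 0.150 (SE). This was a change that 23.4% of tested genes exceeded in the negative direction, and it no longer passed limma's test under quantile normalization (−0.28) or without control replicate 2 (−0.47).

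The other two genes did not pass. Gsto1, of the omega class, reduces dehydroascorbate and removes glutathione from proteins. It had 586 and 512 in the controls and 546, 574, 508 and 422 in IRKO. Its groups overlapped, with a log2 difference of −0.11 ± 0.149 (SE), which was 0.046 under quantile normalization. Mgst3, a microsomal enzyme with peroxidase activity, had 725 and 1256 in the controls and 1345, 1531, 1351 and 969 in IRKO. IRKO replicates 1 to 3 lay above both controls and replicate 4 lay between them, with a log2 difference of 0.42 ± 0.234 (SE). Mgst3 passed limma's test as higher under quantile normalization (0.64) and without control replicate 2 (0.82), but as lower (−1.18) with the libraries scaled to the microglia markers, where the median of all genes was −1.58. Without control replicate 1 its change was 0.029 and did not pass.

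As shares of the 9 genes' summed reads, the mu class dominated the controls and Gstp1 took the larger part in IRKO. Shares are within 1 library and free of its scaling, but they count reads and not molecules, and a fall of one gene raises the share of the others. Gstm1 took 57.7% and 53.2% of the sum in the controls and 14.7 to 19.3% in IRKO. Gstm5 took 25.4% and 27.1% in the controls and 12.4 to 17.8% in IRKO. The share of Gstp1 was 7.95% and 9.47% in the controls and 41.0 to 47.3% in IRKO, although its own normalized count was lower there.

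Mgst3 and Gsto1, whose normalized counts overlapped between the groups, also held larger shares in IRKO. Mgst3 made up 1.13% ± 0.411 (SD, n = 2) of the controls' sum and 11.1% ± 1.33 (SD, n = 4) of the IRKO sum. Gsto1 made up 0.630% ± 0.0702 and 4.41% ± 0.292, with the same numbers of libraries. The shares of Gstt1, Gstk1 and Mgst1 overlapped between the groups, lying between 0.963% and 2.68% in all 6 libraries. Gsta4 held 2.22% and 2.73% in the controls and 2.89 to 3.89% in IRKO, a small gap without overlap. The exact permutation test of 2 against 4 libraries cannot reach 0.05, and no test was made.

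**Figure D2:**
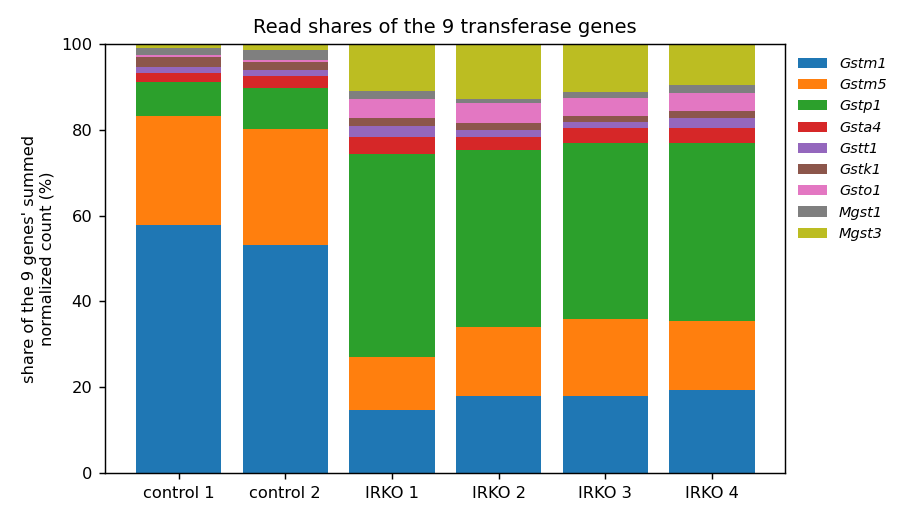
Share of each gene in the summed normalized count of the 9 genes (%), one bar per library. Gstm1 and Gstm5 fill most of the control bars, with Gstm1 at 53.2% and 57.7%, while Gstp1 is the largest segment in IRKO at 41.0 to 47.3%.

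The genes were also set against cell type markers of the same library. The measure is a gene's log2 normalized count minus the mean log2 of the 20 astrocyte markers or of the 20 microglia markers. No scaling of a whole library alters this difference. Between group means, it shifts the log2 changes of all genes by the same value for a given marker list. The order of the genes by log2 change therefore stays as above. Against the astrocyte markers, Gstm5 was at −0.14 and 0.32 in the controls and 0.12 to 0.55 in IRKO, and Mgst1 at −4.11 and −3.27 in the controls and −3.49 to −2.70 in IRKO. The groups overlapped for both. The IRKO mean exceeded the control mean by 0.21 for Gstm5 (0.41 with the median of the markers) and by 0.58 for Mgst1, whose controls lay far apart. Gstm1 was at 1.05 and 1.29 in the controls and 0.37 to 0.71 in IRKO, a difference of −0.69 between the group means (−0.50 with the median of the markers in place of the mean).

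For the remaining genes the astrocyte-relative value was higher in IRKO without overlap. The difference between the group means was 0.62 for Gstk1, 1.44 for Gstt1 and 1.47 for Gsta4. It was 3.28 for Gstp1, 3.79 for Gsto1 and 4.32 for Mgst3, the 3 genes with small differences as deposited. The astrocyte markers themselves had a median log2 change of −3.92. Of all tested genes, 1.03% had a change below that of the marker Slc1a2 (−3.89), so most genes lie higher in IRKO on this measure. Against the microglia markers all 9 were lower in IRKO without overlap, with differences from −6.19 for Gstm1 to −1.18 for Mgst3. Those markers were themselves higher in IRKO, with a median log2 change of 1.66. With libraries scaled to them, 12373 of the 14698 tested genes passed as lower, and the median of all genes was −1.58.

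**Figure D3:**
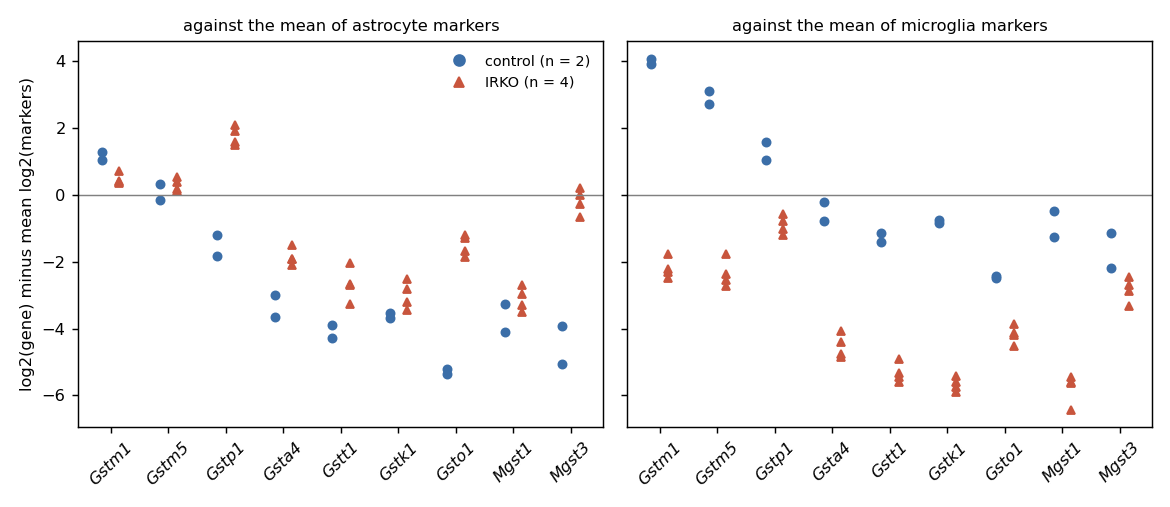
Log2 normalized count of each gene minus the mean log2 of 20 astrocyte markers (left) or 20 microglia markers (right) in the same library, for controls (circles, n = 2) and IRKO (triangles, n = 4). On the left the groups overlap for Gstm5 and Mgst1, and on the right every IRKO value lies below both controls for all 9 genes. The astrocyte markers themselves were lower in IRKO (median log2 change −3.92) and the microglia markers higher (1.66), which moves most genes on both sides.

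Related genes next to each other on a chromosome did not share 1 value. The mu class genes lie in a cluster of 7 genes spanning 149 kb of chromosome 3, from 107895854 to 108045179 in GRCm38.p6. In the order along the chromosome, the log2 changes of the 6 that were tested were −3.68 for Gstm5, −0.97 ± 0.277 for Gstm7, −2.55 ± 0.282 for Gstm6, 0.28 ± 0.350 for Gstm2, −4.59 for Gstm1 and −0.76 ± 0.157 for Gstm4 (all SE). Gstm6 (limma adjusted p = 8.55e-05), Gstm4 (0.00288) and Gstm7 (0.0152) fell, but Gstm7 did not pass without control replicate 1 or without control replicate 2.

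Gstm2 did not pass (limma adjusted p = 0.521). It had 135 and 149 in the controls and 325, 132, 120 and 170 in IRKO, so that 1 IRKO library stood above the rest, and the change was −0.024 without IRKO replicate 1. Gstm2 turned to −1.32 and passed as lower with libraries scaled to the microglia markers. The summed mu class was 72837 and 71982 in the controls and 3985 to 4913 in IRKO. Within it, Gstm1 took 66.7% ± 2.22 of control reads (SD, n = 2) but 45.7% ± 1.43 of IRKO reads (SD, n = 4), and Gstm5 took 31.6% ± 2.22 and 40.7% ± 2.69. The mu genes are similar in sequence, and the authors' counting could have split reads among them.

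The theta class genes Gstt3, Gstt1, Gstt4 and Gstt2 follow each other on chromosome 10. Gstt3 stood at 463 and 759 in the controls and at 77.7 to 148 in IRKO, and fell by 2.59 ± 0.293 on the log2 scale (SE, limma adjusted p = 9.89e-05), close to Gstt1, from which it lies 2390 bases away. Gstt2, at −0.40 ± 0.238 (SE, limma adjusted p = 0.174), did not pass, and passed as lower (−2.00) with libraries scaled to the microglia markers. Of the theta class reads it took 8.38% ± 1.34 (SD) in 2 controls, against 28.1% ± 2.48 (SD) in 4 IRKO libraries.

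In the omega pair, Gsto1 and Gsto2 lie 647 bases apart on chromosome 19. Gsto2 had 59.6 and 84.2 in the controls and 12.7 to 21.7 in IRKO and fell by 2.03 ± 0.330 on the log2 scale (SE, limma adjusted p = 0.000803), while Gsto1 stood at −0.11. The difference between these neighbours was not tested. Gstp1 held 99.4% ± 0.0715 of pi class reads in controls (SD, n = 2) and 98.9% ± 0.427 in IRKO (SD, n = 4). Its close copy Gstp2, 2375 bases from it, did not pass (0.19 ± 0.407, SE, limma adjusted p = 0.713) and passed as lower (−1.41) in the microglia scaling. These copies may share reads.

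**Figure D4:**
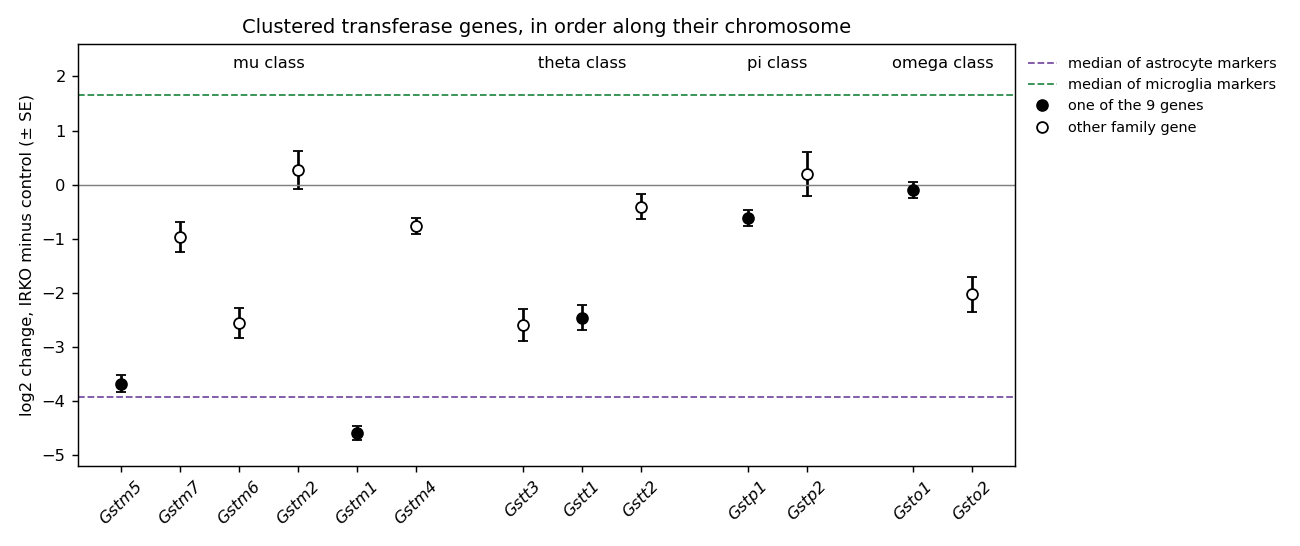
Log2 change (IRKO minus control, ± SE, n = 2 and 4) of the tested mu, theta, pi and omega class genes in their order along the chromosome, with dashed lines at the median change of the astrocyte markers (−3.92) and the microglia markers (1.66). Neighbours differ, as Gstm2 (0.28) beside Gstm1 (−4.59) and Gsto1 (−0.11) beside Gsto2 (−2.03), and with libraries scaled to the microglia markers Gstm2 and Gstp2 turn to −1.32 and −1.41.

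The other 21 genes of the transferase family were followed as a list, of which 15 were tested: 3 rose, 8 fell and 4 did not pass, with a median log2 change of −0.76. Over all tested genes 26.6% were higher and 29% lower, with a median of 0.017. The 6 that were not tested, Gstm3, Gstp3, Gsta1, Gsta2, Gstt4 and Mgst2, had normalized counts of at most 16.5 in any library. Gstz1, the zeta class enzyme of tyrosine breakdown, fell from 1156 ± 56.8 (SD, n = 2) to 376 ± 22.5 (SD, n = 4), a log2 change of −1.62 ± 0.115 (SE, limma adjusted p = 5.42e-06). Gsta3, an alpha class gene, stood at 15.7 and 166 in the controls and at 6.90 to 11.9 in IRKO, and fell by 2.32 ± 0.769 on the log2 scale (SE, limma adjusted p = 0.0288). Without control replicate 2 its change was −0.66 and did not pass, and it also did not pass without IRKO replicate 2, 3 or 4 or with no variance trend (limma adjusted p = 0.0537). In control replicates 1 and 2, Alb, the serum albumin gene of liver, was at 360 and 5125, and Ttr, the transthyretin gene of the choroid plexus list, was at 3549 and 66778. The part of liver or choroid plexus RNA in the Gsta3 value was not tested.

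The 3 genes that rose take part in the making of lipid mediators. Hpgds, the sigma class prostaglandin D synthase of blood and immune cells, had 434 and 348 in the controls and 1185, 1011, 841 and 1195 in IRKO. Ltc4s, the membrane enzyme that joins glutathione to a leukotriene, had 977 and 898 in the controls and 4190, 4001, 2474 and 2584 in IRKO. Alox5ap, which presents arachidonic acid to a lipoxygenase, had 534 and 468 in the controls and 1686, 1477, 1280 and 1554 in IRKO. Every IRKO library lay above both controls for all of them.

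Their log2 changes were 1.43 ± 0.168 for Hpgds, 1.78 ± 0.224 for Ltc4s and 1.58 ± 0.134 for Alox5ap (SE), with limma adjusted p-values of 0.000125, 0.000183 and 1.74e-05, but −0.17, 0.18 and −0.0244 with libraries scaled to the microglia markers, where none passed. The median of the microglia markers themselves was 1.66 as deposited, and the part of microglial content in these rises was not tested. Ptges, the inducible prostaglandin E synthase of the same membrane family, moved the other way, from 649 and 553 to 152 to 214, a log2 change of −1.74 ± 0.168 (SE, limma adjusted p = 3.79e-05). Among the reads of the 6 genes of the membrane family, Mgst1 went from 35.5% ± 4.19 (SD, n = 2) to 2.72% ± 0.833 (SD, n = 4). Ltc4s went from 20.1% ± 3.84 to 50.6% ± 4.96, while Mgst3 stood at 20.7% ± 5.23 and 20.3% ± 3.46.

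**Figure D5:**
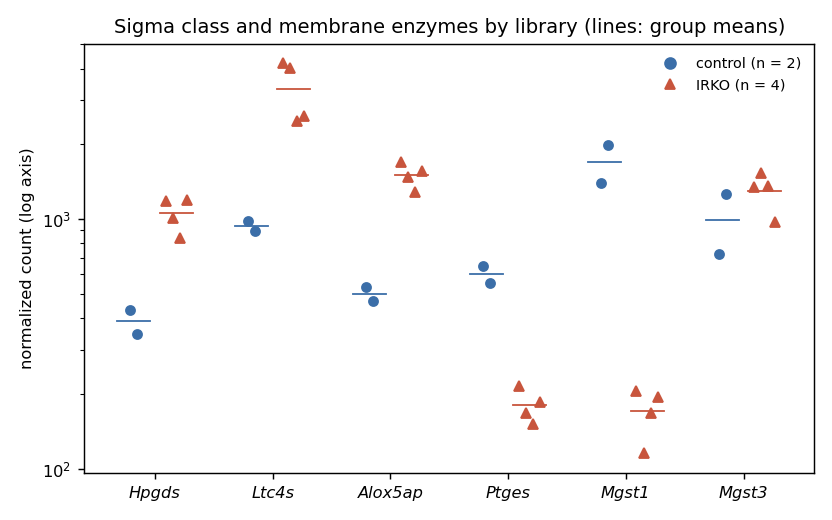
Normalized counts (log axis) of Hpgds and of 5 genes of the membrane family by library, with a line at each group mean (controls, n = 2; IRKO, n = 4). Hpgds, Ltc4s and Alox5ap lie higher in every IRKO library and Ptges and Mgst1 lower, and with libraries scaled to the microglia markers the first 3 stand at −0.17, 0.18 and −0.024 (log2).

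Of 27 genes that make, recycle, break down or export glutathione and its conjugates, 15 fell, 5 rose and 7 did not pass, with a median log2 change of −0.52, beside 29% lower, 26.6% higher and a median of 0.017 among all tested genes. With libraries scaled to the microglia markers, which moved the median of all genes to −1.58, 25 fell and none rose. In that scaling 12373 of the 14698 tested genes passed as lower. Oplah, which returns oxoproline to glutamate, fell from 2913 ± 720 (SD, n = 2) to 279 ± 6.04 (SD, n = 4), or by 3.36 ± 0.147 on the log2 scale (SE, limma adjusted p = 4.2e-07). Glo1, which uses glutathione to clear methylglyoxal, fell by 1.87 ± 0.118 (SE, adjusted p = 2.56e-06), Gclm, a subunit of the first enzyme of glutathione synthesis, by 1.85 ± 0.164 (SE, 2.26e-05) and Adh5, which acts on the formaldehyde adduct of glutathione, by 1.61 ± 0.159 (SE, 4.32e-05).

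Among the genes of this list that rose, Ggt5, an enzyme that splits extracellular glutathione, had 86.6 and 75.5 in the controls and 180 to 228 in IRKO (1.34 ± 0.168, SE, limma adjusted p = 0.000176), but −0.26 in the microglia scaling. Slc1a1, which carries glutamate and cysteine into neurons, rose by 0.92 ± 0.175 (SE, limma adjusted p = 0.00194) and Ggct, which degrades gamma-glutamyl peptides, by 0.74 ± 0.178 (SE, 0.00671), both lower in that scaling at −0.68 and −0.86, and Ggct did not pass without control replicate 1. Dpep1, a dipeptidase, had 12.4 and 3.87 in the controls and 58.4, 17.7, 206 and 20.5 in IRKO (2.55 ± 0.896, SE, limma adjusted p = 0.0365). It did not pass without IRKO replicate 1 (2.44), with a pseudocount of 5 (2.09), with no variance trend or in the microglia scaling (0.95). Nor did it pass by edgeR without IRKO replicate 1 (3.36). Without control replicate 2 its change was 1.82.

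The genes with the most similar profiles were sought over the 6 libraries, by Euclidean distance between log2 profiles centred on their means, among 14269 other genes. Gstm1 was nearest to Gldc, the glycine decarboxylase (distance 0.231), and Cyp2j9, a cytochrome P450 (0.256). Gstm5 was nearest to the chemokine gene Cxcl14 (0.237) and the monoamine oxidase gene Maob (0.263). These 4 had log2 changes of −4.75, −4.67, −3.70 and −3.64.

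Gstp1 lay near Vdac2, a channel of the outer mitochondrial membrane (0.0752), and Bcas2 (0.110), and Gsto1 near Ndrg3 (0.0473) and Aktip (0.0875). Gsta4 was closest to Exoc3l4 (0.170) and Serhl (0.287), Gstt1 to Cdc42ep4 (0.207) and Cpq (0.322), and Gstk1 to Id3 (0.311) and Cyp7b1 (0.349). Mgst1 was nearest to Slc38a3, a glutamine transporter (0.436), and Nat1 (0.482), and Mgst3 to Atp6v1d, a proton pump subunit (0.193), and Pcdhb3 (0.270). With 6 libraries in 2 groups, such a distance mostly follows the difference between the groups for genes with a large change. For genes with a small change, such as Gsto1 (−0.11), it rests more on the spread within the groups. The distances are a description.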

How the data were processed

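Ribosome-bound RNA of 2 control and 4 IRKO libraries was analysed from 1 table. Per the submitters' processing notes, Bowtie2 and GRCm38.p6 were used. For the counting tool, the annotation and the strand setting, nothing is stated in the sources used here. Each value deposited by the authors is a signal, a gene's reads divided by 1 size factor per library, as 100% of values were whole multiples of the value of 1 read within 0.05 reads. Genes that reached a value of 10 in 2 or more libraries were tested on log2(value + 1), so folds of low genes are understated, with limma 3.58.1 in R 4.3.3 (moderated variances with a mean-variance trend, IRKO minus control, two-sided). P-values were Benjamini-Hochberg adjusted over 14698 genes, with a threshold of 0.05. The fit was tested on simulated data with far fewer changed genes than passed here, so that test does not cover differences this wide. Printed folds are ratios of mean normalized counts.

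Genes, lists and markers were chosen with earlier results of these data known. Named were the 9 genes, tested relatives of their class, Hpgds and the genes of the membrane family. Also named were other relatives and glutathione genes with the smallest p (3 and 4 in each direction), and the 2 genes nearest in profile. Coordinates are from RefSeq for GRCm38.p6, where 18542 symbols matched. Alternatives were pseudocounts of 0.5 and 5, no filter or one at 50, TMM, quantile and microglia marker scaling, no variance trend, edgeR 4.0.16 and DESeq2 1.42.0 on recovered reads, a replicate block and leaving out each library. EdgeR without IRKO replicate 1, whose read step of 0.991 lies near 1, was added after seeing the data. Shares per transcript length were planned but not run, and transcript lengths and sequences were not analysed here.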

Additional observations from a re-analysis of the deposited data

How the results depend on the processing

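Gstm1, Gstm5, Gsta4, Gstt1, Gstk1 and Mgst1 stayed lower in IRKO and past limma's, edgeR's or DESeq2's threshold in all 18 alternatives, 17 fixed with the design and edgeR without IRKO replicate 1. With libraries scaled to the microglia markers, which moved the median of all genes by construction, 31 genes were higher and 12373 lower, and the counts of higher genes went to 0 in the other transferase list and 0 in the glutathione list, where 25 were lower. In the same scaling Mgst3 (−1.18), Gstm2 (−1.32), Gstp2 (−1.41), Hpgds (−0.17), Alox5ap (−0.024), Ggt5 (−0.26), Slc1a1 (−0.68) and Ggct (−0.86) changed sign. Of the 9 genes, 1 (Mgst3) passed as higher under quantile normalization, 1 (Mgst3 again, at 0.59) with the replicate block, and 0 to 1 when single libraries were left out, the 1 being Mgst3 without control replicate 2. The deviations of same-numbered libraries from their group means had r of −0.082 and 0.079 for numbers 1 and 2. With 2 controls, the deviations of the controls mirror each other, so these values cannot decide whether libraries were paired. The labels tie no numbers together. The block gave 3244 genes higher and 3691 lower, and with it Gsta3 (−2.39) did not pass (limma adjusted p = 0.0936). Since only IRKO has libraries numbered 3 and 4, the change in that fit rests on numbers 1 and 2 of each group. Against the astrocyte markers, the difference of Gstm1 was −0.50 with their median. The cause of the other moved values was not tested. With 2 controls, control means rest on 2 values, and Gsta3, Dpep1, Gsto2 and Gstp2 are among the named genes with few reads.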
